A study of Mus musculus with 22 samples.

Results

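Mouse blastocysts depleted of the histone variant H2A.Z were compared with control blastocysts, gene by gene, in RNA-seq of whole embryos. The comparison takes the 4 knockdown (KD) and the 4 control blastocyst libraries, 8 of the 22 libraries in the series, and every gene that reached an FPKM of 1 in 3 or more of these 8 libraries, which were 11828 of the 55335 genes listed. FPKM, fragments scaled by transcript length and by the library's mapped fragments, express the level of a transcript.

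H2A.Z takes the place of the core histone H2A in nucleosomes beside promoters and enhancers, where the SRCAP and TIP60-p400 complexes load it and INO80 and Anp32e are known to remove it. A blastocyst consists of an outer epithelium, the trophectoderm, which pumps fluid into a cavity and later forms placental tissue, and of an inner cell mass, which gives rise to the epiblast and the primitive endoderm.

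Each library was made from 15 embryos of B6D2F1 parents, the females superovulated at 8 weeks, collected at 94 h after hCG for blastocysts. KD embryos had been injected as zygotes, 20 to 22 h after hCG, with about 10 pL of a mix of 3 siRNA pairs at 20 µM. The control embryos of the qPCR are named as noninjected, while the treatment of those in these libraries is not stated, so injection itself and loss of H2A.Z cannot be told apart. Libraries of 4 control and 3 KD morulae, collected at 78 h from embryos of the same kind, served to place single values by stage. Polyadenylated RNA was amplified by Smart-seq2 in 16 to 18 cycles and sequenced as paired reads of 150 bp.

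Read counts are not given, so the depth of each value is unknown. A relative depth, read from the spacing of the lowest values of single-exon genes, was 14.8 to 22.1 (median 17.7) in the control and 17.2 to 21.2 (median 19.8) in the KD libraries. Between 10554 and 11216 genes reached an FPKM of 1 in a control library, and between 10792 and 11495 in a KD library. Across genes, log2 values correlated at 0.965 to 0.984 among control libraries, 0.966 to 0.981 among KD libraries and 0.883 to 0.953 between the groups, as a description in which genes are not independent replicates. No library was a copy of another. Per-library values below are in FPKM and in the order of replicates 1, 4, 5 and 6; a control and a KD library with the same number are different embryos. A log2 fold change is KD minus control and is followed by ± its SE from limma.

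Marker genes were read against the labels. The 12 trophectoderm markers summed to 1009.9, 1491, 1325 and 1001 FPKM in the control and 601, 754, 811 and 619 in the KD libraries, against a mean of 152 in control morulae; Krt18 was the most abundant and none was at 0 in all libraries. All 4 KD sums lay below all 4 control sums and above the morula mean. Krt18, with up to 992 FPKM, made up much of these blastocyst sums, so they do not show a fall of each marker. The 8 markers of epiblast and inner cell mass, with Nanog the most abundant, summed to 277, 294, 362 and 237 in the control and 239.5, 279, 378 and 279 in the KD libraries, which overlap. Primitive endoderm markers, 7 in number, summed to 10.3, 11.3, 10.4 and 20.5 in the control and 12.4, 10.2, 37.5 and 20.3 in the KD libraries; most of this was Gata6, and Foxa2 was listed at 0 in all 8 libraries. Of 12 markers of cumulus and granulosa cells, the cells that surround the oocyte, 0 reached an FPKM of 1 in 3 libraries, and Has2, Ptx3, Fshr and Amh were listed at 0 throughout. Their sums were 0.0986, 0.355, 0.373 and 0.311 in the control and 0.256, 0.284, 0.289 and 0.347 in the KD libraries, with Star the most abundant. Oocyte markers, 10 in number with Zp3 the most abundant, summed to 2.06, 3.23, 2.18 and 2.6 in the control and 4.99, 4.0, 2.48 and 3.21 in the KD libraries. Blood and fibroblast markers, 6 in number with Pecam1 the most abundant and Hbb-bs and Col1a2 at 0, summed to 2.44, 4.42, 6.02 and 4.44 in the control and 5.3, 6.14, 8.49 and 6.0 in the KD libraries. Markers of the 2-cell embryo, 19 in number with Tcstv3 the most abundant, summed to 8.24, 8.02, 7.09 and 10.2 in the control libraries. Their KD sums were 24.2, 58.4, 16.9 and 62, without overlap and highest in KD replicates 4 and 6, against a mean of 40.7 in control morulae. The oocyte and blood sums overlapped between groups, with the higher mean in KD, and the part of any marker list in the results was not tested. In pools of whole embryos, fewer cells of a type and less RNA per cell cannot be told apart, and the same holds for slower development of KD embryos and a change within cells. The paper also reports that KD reduced blastocyst formation, and how the embryos of the KD libraries were chosen is not stated. Selection or arrest of embryos therefore cannot be told apart from a change within cells either.

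At an adjusted p under 0.05, 1977 genes rose in KD blastocysts (16.7% of those tested) and 2344 fell (19.8%). With an absolute log2 fold change above 1 as well, 722 were upregulated (6.10%) and 918 downregulated (7.76%) differentially expressed genes, or DEGs. A pseudocount of 0.1 in place of 1 gave 1109 upregulated DEGs, and an FPKM of at least 5, which leaves fewer genes to test, gave 459, with 1231 risen and 1537 fallen genes. The median log2 fold change over all genes tested was 0.00, with a median SE of 0.20, so a gene list is read below against these shares and this median. Genes of p53 and of the 2-cell stage had the largest risen shares among the lists with at least 15 genes tested, and complex I, ATP synthase, mitochondrial ribosome and trophectoderm effector genes the largest fallen shares. No list was given a test of its own. Some genes, such as Id2, Fabp3, Tdgf1 and Sparc, are members of several lists, so the counts of different lists are not separate results. A gene near the filter can pass it through 1 group alone, as 357 genes did through KD libraries, of which 313 rose, and 348 through control libraries, of which 307 fell. The filter picks such genes by their difference, so where a list's counts differ for them they are also given for genes present in both groups, at an FPKM of 1 in 3 libraries of each (set after seeing the data), where 1464 of 9678 rose and 1786 fell. List counts that moved by more than 1.5 times and calls that changed for genes described are given beside the result. The alternatives were single libraries left out, the other pseudocount, no filter on low FPKM, the stricter filter of 5, FPKM as deposited, quantile normalization, replicate numbers as a block, 1 fit of all 22 libraries, and a batch of replicate 1 against higher numbers, chosen after seeing the data.

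**Figure D1:**
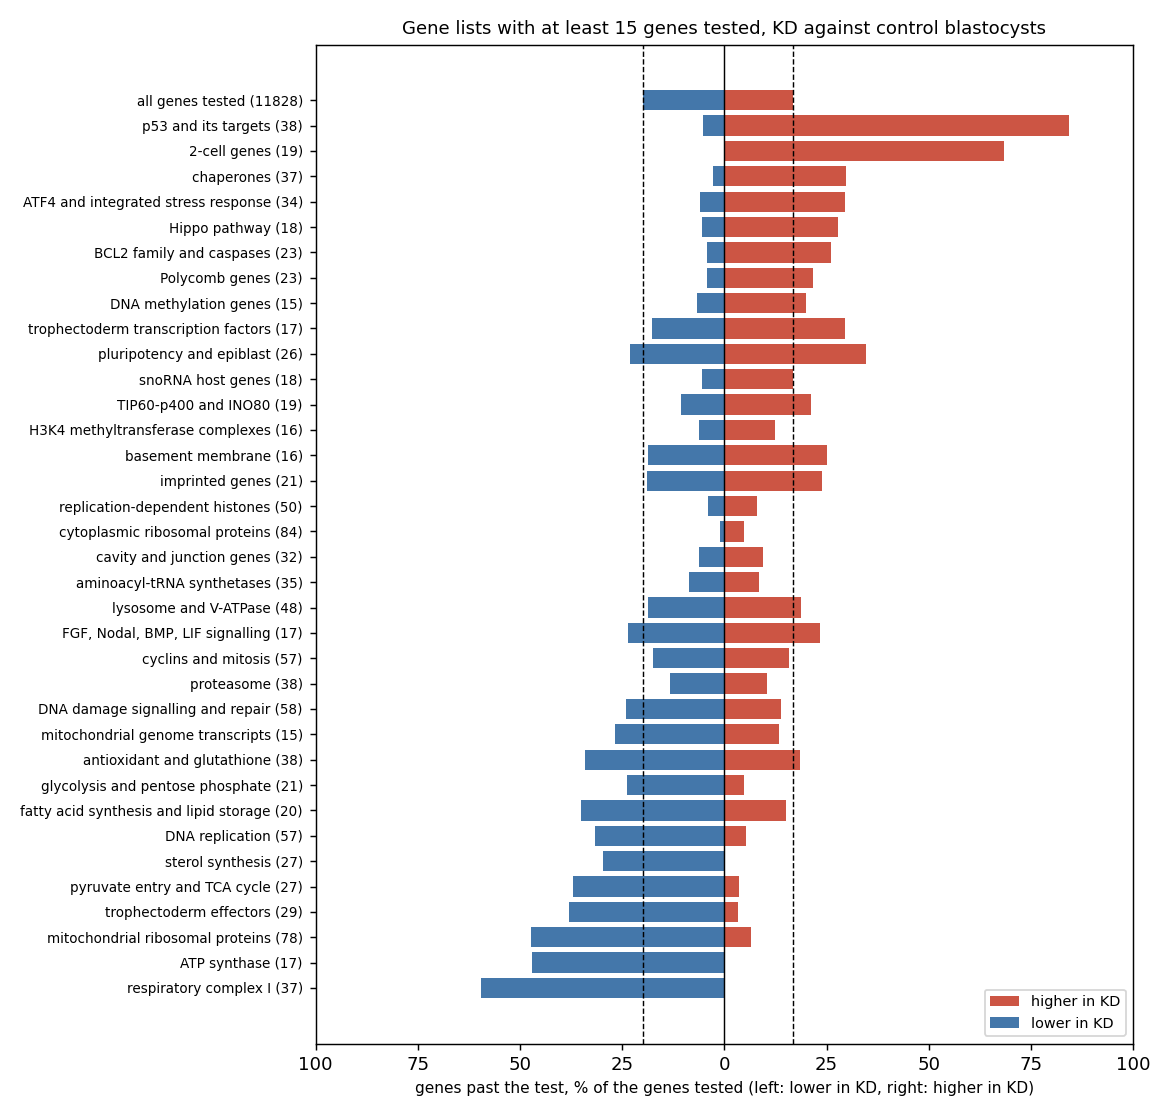
For each gene list with at least 15 genes tested, the bars give the percentage of its tested genes that passed the test, higher in KD to the right and lower in KD to the left, with the number tested in parentheses; dashed lines mark the 16.7% and 19.8% of all genes tested. The p53 list reaches 84.2% to the right and the complex I list 59.5% to the left.

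H2afz, which encodes the H2A.Z.1 protein (chromosome 3, 137864487 to 137866922 of mm10), stood at 2656, 2431, 1945 and 2055 in the control and 64.2, 67.2, 53.2 and 57.6 in the KD libraries. Every KD library was far below every control (log2 fold change -5.19 ± 0.20, adjusted p = 3.63e-08). About 35.4% of the gene's stretches of 50 bases also occur in transcripts of other genes, so single values carry some uncertainty. H2afv, the gene of the paralog H2A.Z.2, was at 49.9, 62, 54.5 and 63.5 in the control and 19.9, 16.9, 10.6 and 13.9 in the KD libraries. It fell without overlap as well (log2 fold change -1.86 ± 0.22, adjusted p = 7.98e-05). Its KD effect was less negative in blastocysts than in morulae, by 1.04 (adjusted p = 0.0208) on the log2 scale, a difference tested as the interaction of stage and KD in one limma fit over both stages. The H2afz effect did not pass that test, with a difference of 0.18 (adjusted p = 0.708).

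Among 5 H2A variant genes tested, 3 fell, 1 rose and the median log2 fold change was -0.89. The other fallen gene was H2afy, which encodes macroH2A.1, a variant of silent chromatin, at 14, 15.8, 14.5 and 23.6 in the control and 9.23, 6.98, 7.85 and 10 in the KD libraries (log2 fold change -0.89 ± 0.20, adjusted p = 0.00438). H2afx, whose protein is phosphorylated at DNA breaks, rose by the test from 15.8, 43.7, 49.3 and 24.3 to 59.4, 33.9, 64.8 and 65.7, with overlapping groups (log2 fold change 0.83 ± 0.30, adjusted p = 0.0447). H2afx did not pass the test without control replicate 1 or 6 or KD replicate 1, 5 or 6, without the filter or with FPKM as deposited (adjusted p from 0.0716 to 0.183). In this list, risen genes numbered 0 without control replicate 1 or 6 or KD replicate 1 or 5, without the filter or with FPKM as deposited and 2 with the batch, and fallen genes numbered 5 without the filter.

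Genes of the complexes that load or remove H2A.Z moved in both directions. In the list of the SRCAP complex and Anp32e, 3 of 10 rose, 1 fell, and the median was 0.10. Srcap itself, the ATPase, was at 1.72, 1.93, 2.17 and 2.39 in the control and 1.03, 1.57, 2.04 and 1.12 in the KD libraries, which overlap (log2 fold change -0.34 ± 0.16, adjusted p = 0.128), and 63% of its 50-base stretches occur in other genes. Anp32e, the chaperone that strips H2A.Z from nucleosomes, was at 6.97, 8.15, 6.87 and 12.7 and 7.41, 8.61, 15.8 and 11.7, again with overlap (log2 fold change 0.29 ± 0.22, adjusted p = 0.343). Ruvbl2, an ATPase shared by several of these complexes, rose (log2 fold change 0.88 ± 0.20, adjusted p = 0.00425). Dmap1, a subunit of both loading complexes, fell (log2 fold change -0.57 ± 0.16, adjusted p = 0.0126). Of the SRCAP list, risen genes numbered 1 without KD replicate 1 or 6 or without the filter, and fallen genes numbered 2 without the filter, with FPKM as deposited, with the replicate block, in the fit of 22 libraries or with the batch. Of 19 other subunits of TIP60-p400 and INO80, 4 rose and 2 fell (median 0.26), with Ino80e, an INO80 subunit, going from 1.33, 3.91, 9.23 and 4.15 in control to 26.1, 12.5, 20.7 and 19.6 in KD libraries. The Ino80e groups did not overlap (log2 fold change 2.04 ± 0.35, adjusted p = 0.000887). Of these subunits, fallen genes numbered 1 without control replicate 4, 5 or 6 or KD replicate 1, 4 or 5, without the filter, with FPKM as deposited or in the fit of 22 libraries.

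Changes are ranked here and below by log2 fold change with the pseudocount of 1, which shrinks those of low genes. Beside H2afz, the protein-coding DEGs with the largest falls on this scale and no overlap between groups were Tmcc1, Cnpy2, BC053393, Ooep, Magea8, Spint5 and Magea5. Tmcc1, an endoplasmic reticulum membrane protein gene, was at 67.1, 261, 158 and 173 in the control and 4.58, 4.72, 4.13 and 6.89 in the KD libraries, against 117 ± 19.6 (SD, n = 4) in control morulae. The control values differ by more than 3-fold among themselves (log2 fold change -4.63 ± 0.31, adjusted p = 1.41e-06). Cnpy2, a resident protein gene of the endoplasmic reticulum, went from 117, 89.5, 75 and 82.4 in the control to 3.92, 4.07, 2.89 and 2.9 in the KD libraries, with 6.65 ± 1.32 in control morulae (log2 fold change -4.35 ± 0.22, adjusted p = 2.75e-07). BC053393 stood at 901, 667, 544 and 444 in the control and 42.6, 49.2, 47.1 and 31.3 in the KD libraries. Control morulae had only 1.49 ± 0.865 of it, so KD blastocysts lay between control morulae and control blastocysts (log2 fold change -3.84 ± 0.25, adjusted p = 1.41e-06). Ooep, of the maternal complex under the oocyte cortex, was at 44, 32.1, 34.6 and 35.3 in control blastocysts and 2.82, 3.23, 1.79 and 1.34 in KD blastocysts, and 2.68 ± 0.728 in control morulae (log2 fold change -3.53 ± 0.24, adjusted p = 1.48e-06). The X-linked Magea5 and Magea8 had log2 fold changes of -3.18 (adjusted p = 4.29e-06) and -3.29 (adjusted p = 7.98e-05); 46.2% and 41.5% of their 50-base stretches occur in other genes, so the split between the copies is uncertain.

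Among protein-coding DEGs, the largest rises on this scale without overlap were those of Gm5890, Obox6, Gm4565, Gm4513, Esp24, Cthrc1, Obox8 and Nkx2-9. Obox6, a homeobox gene of the early embryo, was at 4.86, 7.9, 8.07 and 12.6 in the control and 86.3, 81, 95.2 and 101 in the KD libraries. Control morulae had 520.2 ± 29.3, well above either group, and the rise did not overlap (log2 fold change 3.36 ± 0.21, adjusted p = 9.69e-07). Cthrc1, which encodes a secreted protein with a collagen repeat, was at 3.24, 3.94, 4.21 and 5.23 in the control and 53.2, 43.6, 43.2 and 33.7 in the KD libraries, and at 112 ± 21.1 in control morulae (log2 fold change 3.11 ± 0.19, adjusted p = 9.69e-07). Nkx2-9, a homeobox gene of the neural tube, was at 0.143, 0.107, 0.486 and 0.238 in control, 10.9, 7.24, 6.1 and 9.09 in KD blastocysts and 0.588 ± 0.566 in control morulae. It was thus higher in KD blastocysts than in either control stage (log2 fold change 2.90 ± 0.21, adjusted p = 2.89e-06). Nkx2-9, Esp24, Obox8 and the 3 Gm genes passed the filter through KD libraries alone. Esp24, a pheromone peptide gene, was listed at 0 in all 4 control libraries and at 2.95, 16.2, 6.26 and 12.7 in the KD libraries, so no fold is given (adjusted p = 7.53e-05). Obox8 was listed at 0 in 3 of the 4 control libraries and at 10.9, 8.47, 4.29 and 8.13 in the KD libraries. Gm5890, Gm4565 and Gm4513, all on chromosome 7, share 84.1%, 100% and 100% of their 50-base stretches with other genes. They rose by the test as 3.58 (adjusted p = 1.66e-07), 3.25 (adjusted p = 1.41e-06) and 3.25 (adjusted p = 1.41e-06) on the log2 scale, values that cannot be assigned to one copy.

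Of 17 trophectoderm transcription factors, 5 rose and 3 fell, with a median of -0.07. Gata2 and Elf5 passed the filter through control libraries alone and Hand1 through KD libraries alone; of the 12 present in both groups, 3 rose and 1 fell. Cdx2, which sets trophectoderm identity, was at 0.863, 1.56, 2.66 and 2.07 in the control and 1.11, 1.16, 3.07 and 2.23 in the KD libraries. Gata3, which acts beside it, was at 29.9, 34.8, 39.3 and 35.9 and 28, 23.6, 40.3 and 23.6. The groups overlapped for both genes, with log2 fold changes of 0.05 (adjusted p = 0.90) and -0.29 (adjusted p = 0.199). Tead4 and Tfap2c, which act before Cdx2 in the morula, rose. Tead4 was at 5.2, 8.2, 9.6 and 7.98 in the control and 14.7, 9.77, 23.8 and 12.6 in the KD libraries, with 22.6 ± 9.29 in control morulae (log2 fold change 0.85 ± 0.22, adjusted p = 0.00988). Tfap2c was at 3.2, 6.5, 8.36 and 8.26, 12.6, 10.6, 18.4 and 11.4 and 17.5 ± 4.74 in the same order (log2 fold change 0.96 ± 0.23, adjusted p = 0.00675). Hand1, Cited2 and Ovol1, genes of later trophoblast cells, also rose, by 1.36, 1.18 and 1.05. Hand1 stayed under 0.1 FPKM in each control library and was at 1.57, 1.21, 3.06 and 1.41 in the KD libraries, and 3.62 ± 1.89 in control morulae.

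The fallen factors were Gata2, Id2 and Elf5, which maintain trophoblast cells. Id2 was at 847, 853, 677 and 642 in the control and 279, 366, 239 and 311 in the KD libraries. KD libraries lay between the control blastocysts and the control morulae, at 22.1 ± 5.41 (log2 fold change -1.33 ± 0.21, adjusted p = 0.000533). Elf5 was at 2.12, 2.2, 1.47 and 0.841 in the control and 0.030, 0.0991, 0.186 and 0.103 in the KD libraries (log2 fold change -1.24 ± 0.19, adjusted p = 0.000507). Gata2 was at 2.96, 3.18, 1.35 and 0.935 and 0.0582, 0.121, 0.205 and 0.10 in the same order (log2 fold change -1.40 ± 0.25, adjusted p = 0.00108), and was listed at 0 in the control morulae. Eomes, another trophoblast regulator, was at 8.22, 8.03, 7.57 and 8.21 in the control and 3.2, 4.08, 9.79 and 6.6 in the KD libraries, where KD replicate 5 exceeded all controls (log2 fold change -0.48 ± 0.24, adjusted p = 0.135). Eomes passed the test without KD replicate 5 (adjusted p = 0.0304). Among trophectoderm factors, risen genes numbered 2 with the stricter filter, and fallen genes numbered 1 without control replicate 1 or 4 or with the stricter filter.

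Of 29 effectors of the mature trophectoderm, 11 fell (37.9%), 1 rose, 17 did not pass and the median was -0.20. Their summed level was 5912, 5599.5, 5236 and 4809 FPKM in the control and 2184, 2878, 2495 and 2612 in the KD libraries, a mean of 47.2% of control, and 568 in control morulae. Fabp3, a fatty acid carrier, and Tspan8, a membrane organiser, carried much of this difference. Fabp3 had 3382, 2648, 2528 and 2534 in the control and 823, 1383, 879 and 1215 in the KD libraries (log2 fold change -1.38 ± 0.23, adjusted p = 0.000761), and 37.3% of its stretches are shared. Tspan8 was at 714, 508, 335 and 389.6 in the control and 62.6, 61.9, 51 and 33.8 in the KD libraries. It had the largest fall of the list on the log2 scale with the pseudocount, without overlap (log2 fold change -3.17 ± 0.29, adjusted p = 1.72e-05), and stood at 8.28 ± 0.491 in control morulae. Plac1, needed for placental growth, was at 30.5, 20.5, 15.6 and 11.1 in the control and 1.6, 1.52, 2.07 and 1.00 in the KD libraries (log2 fold change -2.93 ± 0.29, adjusted p = 2.66e-05). Of the effector list, risen genes numbered 0 with the stricter filter. Of the 27 present in both groups, 0 rose and 10 fell.

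Keratins differed. Krt18 was at 730.2, 992, 827 and 646 in the control and 369, 461, 399 and 329 in the KD libraries, a fall without overlap (log2 fold change -1.02 ± 0.18, adjusted p = 0.00126). Its partner Krt8 was at 225, 431, 425 and 289 and 169.8, 241, 313 and 231, which overlap (log2 fold change -0.49 ± 0.21, adjusted p = 0.0794). Krt8 passed the test without control replicate 1, with the replicate block, in the fit of 22 libraries or with the batch (adjusted p from 0.0242 to 0.0347). Krt7, far less abundant, rose (log2 fold change 0.64 ± 0.16, adjusted p = 0.0068). About 29.7% of the 50-base stretches of Krt8 occur in other genes.

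**Figure D2:**
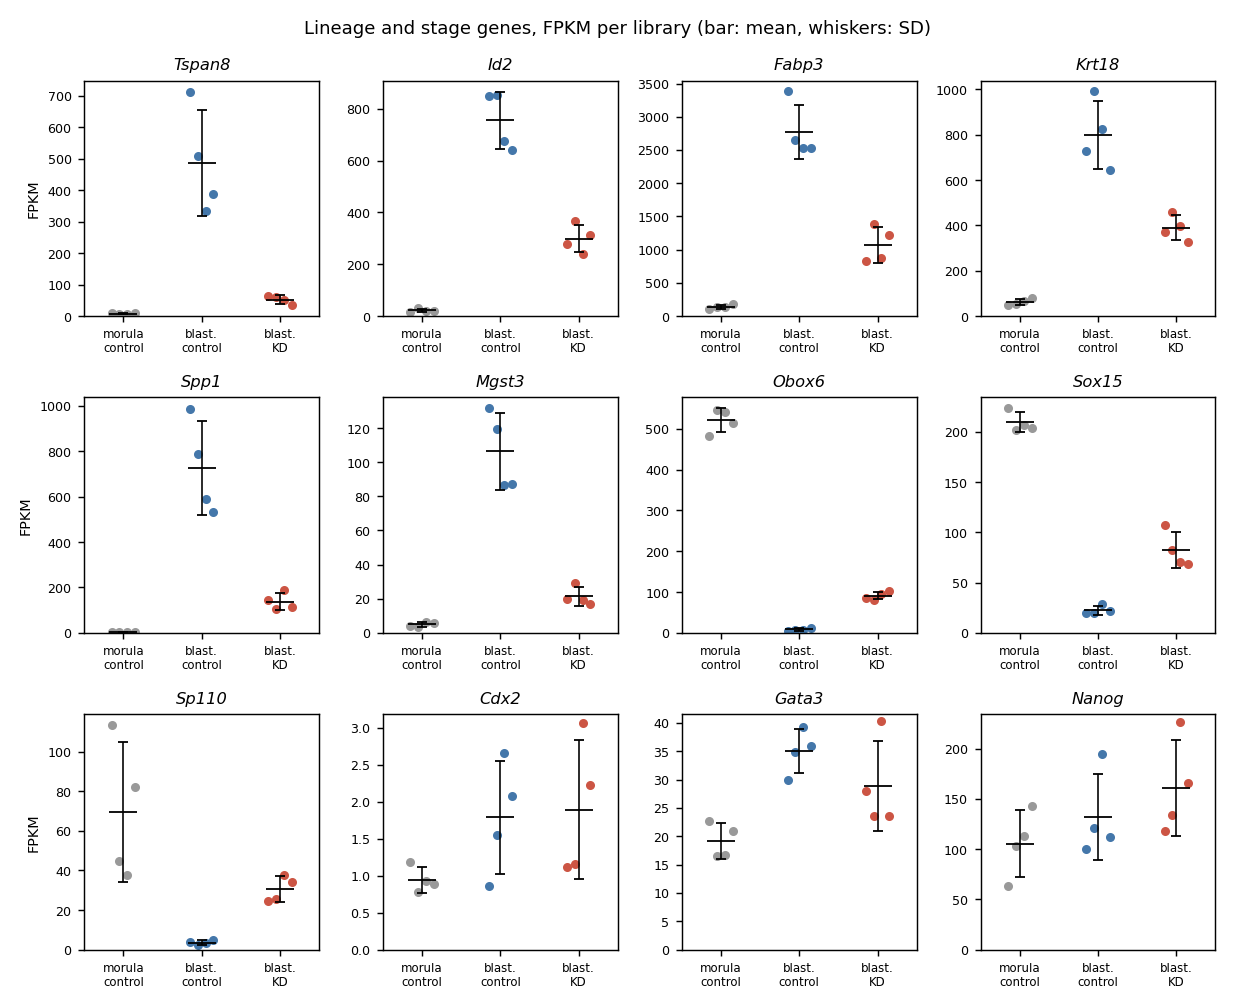
FPKM of 12 genes in each of 4 control morula, 4 control blastocyst and 4 KD blastocyst libraries (points), with the group mean (bar) and SD (whiskers), on linear axes that start at 0. For Tspan8, Id2, Fabp3, Krt18, Spp1 and Mgst3 all KD points lie under all control blastocyst points, for Obox6, Sox15 and Sp110 above them, and for Cdx2, Gata3 and Nanog the groups overlap.

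Of 32 genes that build the cavity and its junctions, 3 rose, 2 fell and the median was -0.00, a value whose sign differs between ways of scaling. Aqp3, the main water channel of the trophectoderm, rose from 14, 21.9, 43.1 and 25.5 to 55, 32.1, 75.3 and 42.3, with overlap (log2 fold change 0.99 ± 0.28, adjusted p = 0.0155). Aqp3 did not pass the test without the filter (adjusted p = 0.0939). Aqp8, a water channel listed at 0 in control morulae, fell from 6.59, 4.44, 9.67 and 10.2 to 0.304, 0.424, 1.19 and 0.386 (log2 fold change -2.45 ± 0.24, adjusted p = 2.61e-05). Among subunits of the sodium pump, Atp1b1 was at 23.1, 43.2, 37.2 and 30.1 in the control and 17.4, 19.4, 27.3 and 28.5 in the KD libraries (log2 fold change -0.49 ± 0.19, adjusted p = 0.0627). Atp1b1 passed the test without control replicate 1 or KD replicate 6, in the fit of 22 libraries or with the batch (adjusted p from 0.0238 to 0.0493). Another subunit, Atp1b3, rose without overlap, from 46.7, 77.2, 74.3 and 61.8 to 95.9, 83.6, 94.8 and 114 (log2 fold change 0.60 ± 0.17, adjusted p = 0.0152). Atp1b3 did not pass the test without KD replicate 6 (adjusted p = 0.0544). Cdh1, which encodes E-cadherin, was at 19.3, 20.5, 18.8 and 19.9 and 11.5, 13.2, 24.8 and 14.3, with KD replicate 5 above all controls and the other KD libraries below them (log2 fold change -0.34 ± 0.19, adjusted p = 0.189). Cdh1 passed the test without KD replicate 5 (adjusted p = 0.0272). In the cavity list, risen genes numbered 1 without KD replicate 6 or without the filter, and fallen genes numbered 4 without control replicate 1, 1 without control replicate 4 or without the filter and 5 without KD replicate 5 or in the fit of 22 libraries. Of the 27 present in both groups, 3 rose and 1 fell.

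Of 26 genes of the pluripotent inner cells, 9 rose, 6 fell and the median was 0.30. Of the 24 present in both groups, 9 rose and 4 fell. Nanog was at 100.5, 121, 195 and 112 in the control and 118, 134, 226 and 166 in the KD libraries, with overlap (log2 fold change 0.29 ± 0.21, adjusted p = 0.288). In morulae it was at 106 ± 33.2 in the control and 20.7 ± 10.8 (SD, n = 3) in the KD libraries. The KD effect on Nanog therefore differed between the stages, by 2.49 (adjusted p = 0.00203) on the log2 scale. Pou5f1, which encodes Oct4, was at 6.81, 10.4, 21.6 and 17.1 in the control and 15.1, 15.5, 45.8 and 26.3 in the KD libraries (log2 fold change 0.82 ± 0.33, adjusted p = 0.0712). Pou5f1 passed the test without control replicate 5 or KD replicate 4, with the replicate block, in the fit of 22 libraries or with the batch (adjusted p from 0.00337 to 0.0477). Sox2, their partner, was at 1.9, 1.27, 1.82 and 1.69 and 1.4, 0.884, 1.73 and 1.45 (log2 fold change -0.18 ± 0.17, adjusted p = 0.425). Klf4, a factor of the naive state, rose by the test from 4.5, 3.9, 4.74 and 4.82 to 5.51, 5.68, 12.1 and 7.6 (log2 fold change 0.61 ± 0.20, adjusted p = 0.031). Klf4 did not pass the test without control replicate 4, 5 or 6 or KD replicate 5 or 6, without the filter or with FPKM as deposited (adjusted p from 0.0569 to 0.0958). Of the pluripotency list, risen genes numbered 4 without the filter.

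Spp1, Tdgf1 and Dppa5a fell, while Sox15 and Dppa2 rose. Spp1, the secreted protein osteopontin, was at 989, 788, 589 and 534 in the control and 145, 105, 187 and 115 in the KD libraries, and at 2.09 ± 0.796 in control morulae (log2 fold change -2.37 ± 0.24, adjusted p = 3.56e-05). Tdgf1, the Nodal co-receptor Cripto, was at 99.5, 96.5, 77 and 49.3 in the control and 13.5, 15, 18.5 and 13.8 in the KD libraries (log2 fold change -2.28 ± 0.23, adjusted p = 3.00e-05). Its KD libraries were below both control blastocysts and control morulae, at 82.7 ± 13.1. Dppa5a, an RNA-binding protein gene, was the most abundant of the list, at 8474, 6895, 5779 and 6159 in the control and 4281, 4913, 3005 and 3670.4 in the KD libraries (log2 fold change -0.78 ± 0.24, adjusted p = 0.0246). Dppa5a did not pass the test without control replicate 1 or 4 or KD replicate 5 or 6, without the filter or after quantile normalization (adjusted p from 0.0516 to 0.11). Sox15 was at 19.7, 19.9, 29 and 21.6 in the control, 108, 82.3, 70.7 and 68.4 in the KD and 209.5 ± 10 in the control morula libraries (log2 fold change 1.82 ± 0.20, adjusted p = 5.96e-05). Dppa2, an activator of early embryonic genes, rose from 261, 372, 475 and 373 to 643, 595, 667 and 611, beside 667 ± 77.3 in control morulae (log2 fold change 0.80 ± 0.16, adjusted p = 0.00265). Other genes share 38.6% of the stretches of Dppa5a and 29.1% of those of Dppa2.

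Among primitive endoderm genes, 2 of 13 fell and 0 rose by limma (1 at an unadjusted p under 0.05), with a median of -0.08. Gata6 was at 8.25, 7.32, 7.46 and 19.4 in the control and 12, 9.45, 35.7 and 19 in the KD libraries, with control replicate 6 and KD replicate 5 high in their groups (log2 fold change 0.73 ± 0.35, adjusted p = 0.124). Gata6 passed the test without control replicate 6 (adjusted p = 0.0318). Sparc and Lamb1, of the basement membrane that this lineage lays down, were the fallen genes. Sparc went from 12.8, 20.4, 17.9 and 12.2 to 1.79, 3.77, 6.32 and 1.9 (log2 fold change -2.0 ± 0.28, adjusted p = 0.000217), and Lamb1 had a log2 fold change of -0.58 (adjusted p = 0.0119). Sox17, Pdgfra and Gata4 did not reach the level to be tested. Of the primitive endoderm list, risen genes numbered 1 without control replicate 6 or KD replicate 5, and fallen genes numbered 4 without the filter and 1 with the stricter filter. Of the 9 present in both groups, 0 rose and 1 fell.

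Of 17 genes of FGF, Nodal, BMP and LIF signalling, 4 rose and 4 fell (23.5% each, median -0.12), beside 16.7% and 19.8% of all genes. Of the 12 present in both groups, 2 rose and 3 fell. Of these signalling genes, risen genes numbered 2 without KD replicate 1 or 6 and 1 with the stricter filter, and fallen genes numbered 2 without control replicate 4 or 5 or KD replicate 1. Fgf4, the signal from epiblast to primitive endoderm, was not tested and stood at 0.711, 1.01, 0.848 and 0.71 in the control and 0.554, 0.496, 0.554 and 0.459 in the KD libraries. In the Hippo list, 5 of 18 rose and 1 fell (median 0.18); of the 15 present in both groups, 3 rose and 1 fell. Ccn1 and Ccn2, targets of YAP with TEAD factors, were the largest rises. Ccn1 was at 1.9, 2.02, 3.45 and 3.24 in the control, 11.4, 11.5, 16.2 and 10.5 in the KD and 5.87 ± 1.09 in the control morula libraries (log2 fold change 1.89 ± 0.19, adjusted p = 2.56e-05). Ccn2 was at 0.216, 0.746, 0.57 and 0.843, 3.48, 2.27, 3.64 and 1.86 and 1.27 ± 0.374 in the same order (log2 fold change 1.26 ± 0.20, adjusted p = 0.000546), and passed the filter through KD libraries alone. Of the Hippo list, risen genes numbered 3 without control replicate 4 or 6 or KD replicate 6 or with the stricter filter, and fallen genes numbered 2 without control replicate 5.

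Of 19 genes of the 2-cell stage tested, 13 rose (68.4%), 0 fell and the median was 1.51. At an unadjusted p under 0.05, limma gave 0 fallen, and the lowest log2 fold change was -0.19. Of the 13 present in both groups, 8 rose and 0 fell. In the 2-cell list, risen genes numbered 7 with the stricter filter. Sp110, a nuclear body gene, was at 3.89, 2.17, 3.18 and 5.03 in the control, 24.3, 25.7, 37.7 and 34.1 in the KD and 69.5 ± 35.2 in the control morula libraries. Its groups did not overlap (log2 fold change 2.81 ± 0.22, adjusted p = 4.53e-06), and 42.3% of its 50-base stretches occur in other genes. Zfp352, a zinc finger gene, was at 0.279, 0.772, 0.0826 and 0.348 in the control and 1.91, 5.02, 1.52 and 4.65 in the KD libraries (log2 fold change 1.57 ± 0.29, adjusted p = 0.00156), and passed the filter through KD libraries alone. Tdpoz5 was at 1.02, 0.441, 1.11 and 0.512 and 2.4, 13.5, 2.39 and 15.4, with KD replicates 4 and 6 well above KD replicates 1 and 5 (log2 fold change 2.06 ± 0.49, adjusted p = 0.00612). Tdpoz5 did not pass the test without the filter (adjusted p = 0.0681). In Tcstv3 these replicates were again the highest, at 0.76, 1.69, 0.248 and 1.21 and 5.73, 11.5, 0.988 and 18.8, and its groups overlapped at KD replicate 5 (log2 fold change 2.01 ± 0.56, adjusted p = 0.0145). Tcstv3 did not pass the test without the filter (adjusted p = 0.115). Members of these repeated families share sequence (100% of the stretches of Tdpoz5, 31.4% of those of Tcstv3 and 49.6% of those of Zscan4d), so their single values are uncertain. Zscan4c and Zscan4d, which mark 2-cell embryos, were too low to be tested, with Zscan4d at 0.0498, 0, 0 and 0.0238 in the control and 0.0859, 0.0938, 0.304 and 0.0817 in the KD libraries. Pramel6, the most abundant of the list, was at 441, 399, 479 and 435 and 509.8, 504, 482 and 506 (log2 fold change 0.20 ± 0.15, adjusted p = 0.334).

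Of 9 oocyte and maternal genes, 2 rose and 2 fell (22.2% each, median 0.20), beside 16.7% and 19.8% of all genes. Dppa3, a maternal factor that guards the methylation of the maternal genome, was at 6173, 4530.2, 4095 and 4134 in the control and 6075, 6034, 3461 and 4344 in the KD libraries, which overlap (log2 fold change 0.06 ± 0.27, adjusted p = 0.883). Dppa3 passed the test after quantile normalization (adjusted p = 0.0136). Padi6, of the maternal cortical complex as Ooep is, rose from 1.72, 2.42, 2.31 and 2.05 to 3.38, 3.43, 4.55 and 4.42 (log2 fold change 0.67 ± 0.16, adjusted p = 0.00566). Of the oocyte list, risen genes numbered 1 without control replicate 1, 4, 5 or 6 or KD replicate 5 or 6, with the stricter filter, with FPKM as deposited or in the fit of 22 libraries.

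The p53 pathway showed the highest share of risen genes. p53 is a transcription factor that damage and stress stabilise, and its targets arrest the cell cycle, repair DNA or start apoptosis. Of 38 genes tested, with Trp53 among them, 32 rose (84.2%), 2 fell and 19 were upregulated DEGs; the median was 0.93. Of the 28 present in both groups, 25 rose and 1 fell. Summed over the list, levels were 429, 674, 799 and 641 FPKM in the control and 1363, 1013, 1353 and 1168 in the KD libraries, all KD sums above all control sums, and 936 on average in control morulae. Sfn, the most abundant of the list, was at 79.1, 177, 222 and 117 in the control and 240.1, 173, 332 and 255 in the KD libraries, with overlap (log2 fold change 0.82 ± 0.26, adjusted p = 0.0253). Sfn did not pass the test without control replicate 1 or 6 or KD replicate 1, 5 or 6 or without the filter (adjusted p from 0.0558 to 0.122).

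Trp53, which encodes p53, was at 12.7, 22.8, 39.9 and 28.4 in the control and 49.5, 48.5, 75.9 and 53.8 in the KD libraries. Each KD library was above each control (log2 fold change 1.19 ± 0.25, adjusted p = 0.00279). Cdkn1a, the cell cycle inhibitor p21, was at 18.4, 31.4, 48.5 and 55.7 in the control and 161, 133, 146 and 123 in the KD libraries. The groups did not overlap (log2 fold change 1.96 ± 0.26, adjusted p = 0.000169). In morulae, Cdkn1a was at 40.5 ± 8.54 in the control and 124 ± 28.1 in the KD libraries, and the KD effects of the stages differed by 0.21 (adjusted p = 0.737), which did not pass. Mdm2, the ligase that degrades p53, was at 8.2, 15.2, 20.7 and 17.1 in the control and 47.2, 33.2, 54.9 and 46.4 in the KD libraries (log2 fold change 1.56 ± 0.22, adjusted p = 0.000246). Its relative Mdm4 went the other way by the test, from 8.49, 19.3, 16.9 and 11.7 to 8.64, 7.93, 7.99 and 7.53, with overlap (log2 fold change -0.67 ± 0.21, adjusted p = 0.0249). Mdm4 did not pass the test without control replicate 4 or 5 or KD replicate 5 or 6 or without the filter (adjusted p from 0.0581 to 0.0802). Ccng1, cyclin G1, was at 47, 56.5, 73.7 and 64.8 in the control and 161, 115, 126 and 121 in the KD libraries (log2 fold change 1.12 ± 0.17, adjusted p = 0.00051).

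Plk2, a stress-induced kinase, had the largest rise of the list, from 1.78, 2.87, 4.26 and 4.35 to 36.4, 18.3, 26.4 and 25.6 (log2 fold change 2.7 ± 0.24, adjusted p = 1.39e-05). Sesn2, which restrains mTORC1, was at 0.175, 0.458, 0.815 and 1.03 and 2.82, 2.8, 6.94 and 4.44 (log2 fold change 1.67 ± 0.23, adjusted p = 0.000236). Both were without overlap. Pltp, a lipid transfer protein gene of the list, fell (log2 fold change -1.01 ± 0.27, adjusted p = 0.0112). Pltp did not pass the test without the filter (adjusted p = 0.0727). Of the p53 list, fallen genes numbered 1 without control replicate 4 or 5 or KD replicate 5 or 6 or with the stricter filter and 0 without the filter.

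**Figure D3:**
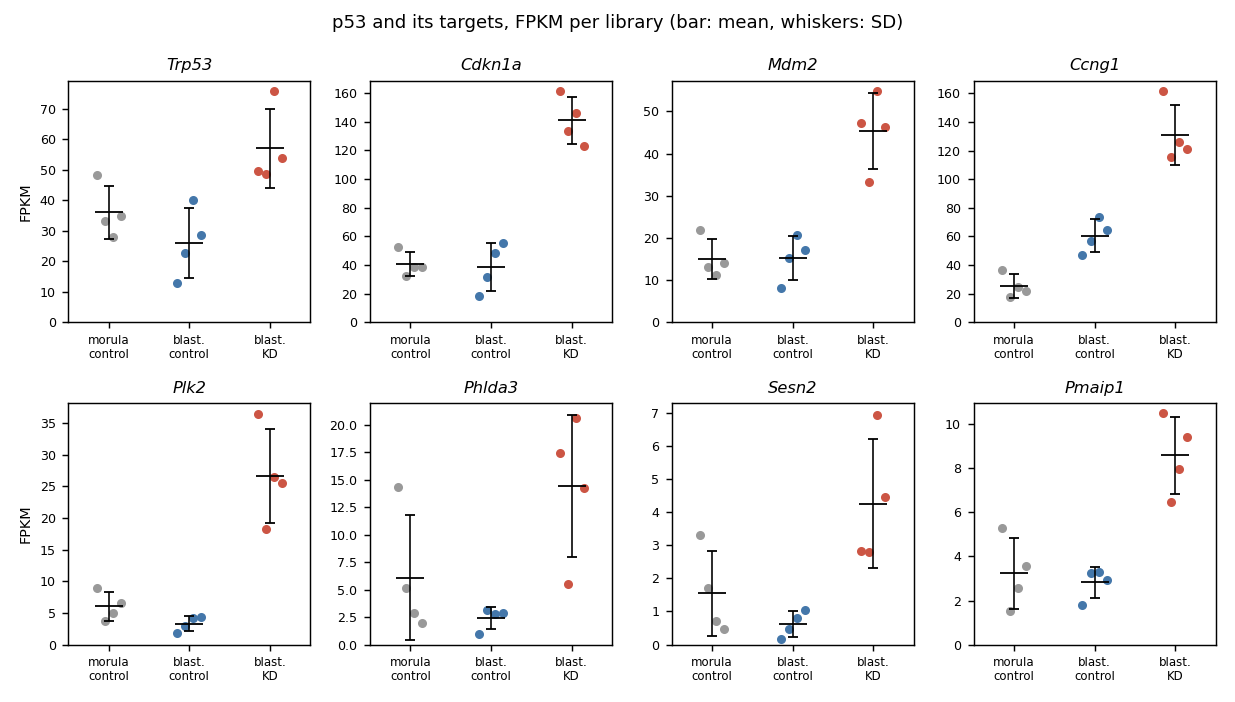
FPKM of Trp53 and 7 p53 target genes in each of 4 control morula, 4 control blastocyst and 4 KD blastocyst libraries (points), with the group mean (bar) and SD (whiskers), on linear axes that start at 0. In each panel all KD blastocyst points lie above all control blastocyst points.

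The RefSeq promoter table (GRCm38.p6) holds 300 bases, 250 before to 50 after each start, and matched 28 of the 32 risen genes of the p53 list. The p53 consensus half-site, searched by name and equal on both strands, was found in 12 of these 28 genes (42.9%), against 9.55% of all 27025 genes in the table. It was found in 0 of the 10 other listed genes that the table holds. The list was made of known p53 targets, so these shares say nothing about the rise. A pair of half-sites with a spacer of 0 and at most 1 mismatch in 20 bases, the core C and G kept, was found in 3 of the 28, which were Cdkn1a, Ccng1 and Gtse1, and in 22 of all 32851 promoters (0.067%). This definition was chosen after the matches of these genes had been seen, and it is the strictest of 4. With 2 mismatches 3 of the 28 and 107 promoters matched, with a spacer up to 3 and 1 mismatch 3 and 72, and with a spacer up to 3 and 2 mismatches 5 and 444. A match describes letters, not binding. The promoter of Cdkn1a is shown as that of a risen target with the pair (chr17:29090729-29091028, plus strand, pair in capitals).
Cdkn1a: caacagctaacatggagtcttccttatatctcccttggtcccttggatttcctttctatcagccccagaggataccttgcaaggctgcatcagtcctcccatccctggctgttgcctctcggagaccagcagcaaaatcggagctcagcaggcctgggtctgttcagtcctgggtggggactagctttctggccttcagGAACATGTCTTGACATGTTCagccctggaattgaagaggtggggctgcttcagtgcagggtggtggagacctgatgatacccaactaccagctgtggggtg
The pair spans bases 200 to 219 of the window, counted from 1 at the 5′ end.

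Of 23 genes of the BCL2 family and the caspases, 6 rose and 1 fell (median 0.21). Pmaip1, the killer protein NOXA, was at 1.81, 3.25, 3.29 and 2.93 in the control and 10.5, 6.48, 7.99 and 9.42 in the KD libraries (log2 fold change 1.34 ± 0.20, adjusted p = 0.000336). Its groups did not overlap. Bax, a pore former, rose by the test from 47.9, 76.6, 79.6 and 63.9 to 165, 72.8, 125 and 96.2, with KD replicate 4 inside the control range (log2 fold change 0.74 ± 0.23, adjusted p = 0.0266). Bax did not pass the test without control replicate 1 or 6 or KD replicate 1 or 5 or without the filter (adjusted p from 0.0532 to 0.114). Birc5, which encodes survivin and was the most abundant, was at 655, 619, 571 and 595 and 530.3, 519, 439 and 486 (log2 fold change -0.30 ± 0.17, adjusted p = 0.197). Birc5 passed the test after quantile normalization (adjusted p = 0.0405). Of the apoptosis list, fallen genes numbered 0 without control replicate 4 or 5 or KD replicate 1 or 6, without the filter or with the stricter filter and 2 without control replicate 6, after quantile normalization, with the replicate block or in the fit of 22 libraries. Of the 19 present in both groups, 5 rose and 0 fell.

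In the integrated stress response, ATF4 raises genes of amino acid supply and chaperoning. Of 34 genes tested, 10 rose and 2 fell (median 0.43). Of the 28 present in both groups, 5 rose and 1 fell, a risen share near that of all genes; Atf3, Trib3 and Slc7a5 passed the filter through KD libraries alone. Trib3, a pseudokinase, was at 0.439, 0.53, 0.89 and 0.422 in the control and 1.34, 3.33, 5.61 and 2.83 in the KD libraries (log2 fold change 1.36 ± 0.24, adjusted p = 0.0012). Ppp1r15a, which encodes GADD34 and restores translation, was at 0.75, 2.43, 2.61 and 1.94 and 5.95, 4.07, 7.21 and 6.0 (log2 fold change 1.26 ± 0.22, adjusted p = 0.00112). Of the ATF4 list, risen genes numbered 5 with the stricter filter, and fallen genes numbered 1 without control replicate 4 or 5 or KD replicate 1 or 6, without the filter or with the stricter filter.

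Of 57 DNA replication genes, 18 fell (31.6%), 3 rose and the median was -0.27. Prim1, the catalytic primase subunit, was at 82.2, 63.6, 52.8 and 52.5 in the control, 16.4, 17.3, 14.6 and 15 in the KD and 39.8 ± 8.49 in the control morula libraries. The groups did not overlap (log2 fold change -1.89 ± 0.21, adjusted p = 5.81e-05). Gins2, of the replicative helicase, fell from 13.7, 16.9, 11.4 and 10.2 to 3.07, 3.0, 2.3 and 3.33 (log2 fold change -1.82 ± 0.21, adjusted p = 6.66e-05), with 65.4% of its 50-base stretches shared with other genes. Pold3 and Cdt1 rose, by 0.88 (adjusted p = 0.000968) and 0.75 (adjusted p = 0.0119).

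Of 57 cyclin and mitosis genes, 9 rose (15.8%) and 10 fell (17.5%), near the shares of all genes (median -0.01, near 0 and of either sign by scaling). Of the 52 present in both groups, 6 rose and 10 fell; Cdkn2b passed the filter through KD libraries alone. Ccne1, cyclin E1, was at 13.7, 37.4, 42 and 32 in the control, 95.5, 54.1, 87.4 and 75.1 in the KD and 201 ± 13.1 in the control morula libraries (log2 fold change 1.38 ± 0.27, adjusted p = 0.00223). Cdkn2b, the inhibitor p15, was at 0.193, 0.0968, 0.541 and 0.569, 2.42, 1.5, 2.48 and 2.3 and 0.252 ± 0.192 in the same order, highest in KD blastocysts (log2 fold change 1.25 ± 0.17, adjusted p = 0.000243).

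Of 58 DNA damage signalling and repair genes, 14 fell (24.1%), 8 rose (13.8%), near the shares of all genes, and the median was -0.22. In the repair list, risen genes numbered 5 without the filter, and fallen genes numbered 8 with the stricter filter. Of the 50 present in both groups, 8 rose and 10 fell. Rad51b, of homologous recombination, was at 3.34, 3.5, 3.09 and 1.7 in the control and 0.278, 0.408, 0.603 and 0.398 in the KD libraries (log2 fold change -1.44 ± 0.19, adjusted p = 0.00018), and passed the filter through control libraries alone. Ercc1, an excision repair nuclease subunit, fell from 19.5, 25.8, 18.6 and 19.5 to 9.79, 7.95, 7.53 and 7.81 (log2 fold change -1.22 ± 0.18, adjusted p = 0.000363). Both were without overlap.

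The respiratory chain passes electrons through complexes I to IV in the mitochondrial inner membrane, and ATP synthase uses the resulting proton gradient. Of 37 complex I genes tested, 22 fell (59.5%) and 0 rose by limma (0 at an unadjusted p under 0.05), with a median of -0.66 and values from -2.34 to 0.29. Their summed level was 8765, 7412, 6825 and 7568 FPKM in the control and 5012, 5986, 4154 and 4983 in the KD libraries, without overlap, and 3684 on average in control morulae. Ndufs4, an accessory subunit, had the largest fall, from 133, 81.9, 82.2 and 98.1 to 15.7, 21.3, 16.5 and 19.9 (log2 fold change -2.34 ± 0.22, adjusted p = 1.93e-05). Ndufa4, the most abundant of the list, was at 914, 559, 588 and 744 and 496, 698, 425 and 575, with overlap (log2 fold change -0.34 ± 0.24, adjusted p = 0.298). It is in the list, and in the sum above, by its symbol alone, and whether its product belongs to complex I was not checked. Of the complex I list, fallen genes numbered 13 without the filter.

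For complex II the counts were 3 fallen of 4 (median -0.82), for complex III 3 of 9 (-0.47), for complex IV 3 of 13 (-0.35) and for ATP synthase 8 of 17 (-0.64). The complex IV share, 23.1%, is near that of all genes. By limma 0 rose in each, and at an unadjusted p under 0.05 the risen numbered 0, 1, 0 and 1. Sdhd, the membrane anchor of complex II, was at 209.6, 211, 132 and 148 in the control and 41.4, 48.1, 32.7 and 32.5 in the KD libraries, a fall without overlap (log2 fold change -2.13 ± 0.24, adjusted p = 5.90e-05). Uqcrh of complex III was at 530.1, 391, 372 and 443 and 105, 309, 205 and 241 (log2 fold change -1.09 ± 0.29, adjusted p = 0.0109). Uqcrh did not pass the test without the filter (adjusted p = 0.0796). Cox7b of complex IV was at 247, 139, 181 and 172 and 62.4, 98, 78.6 and 73.9 (log2 fold change -1.21 ± 0.22, adjusted p = 0.0015). Cox5a of complex IV was at 1458, 1195, 1278 and 1364 and 1044, 1179, 1039 and 1139 (log2 fold change -0.26 ± 0.17, adjusted p = 0.264). Cox5a passed the test after quantile normalization (adjusted p = 0.00954). Atp5g1 of ATP synthase was at 885, 703, 687 and 631 and 946, 898, 468 and 618 (log2 fold change -0.03 ± 0.27, adjusted p = 0.952). For complex III, risen genes numbered 1 without control replicate 4 or KD replicate 4 or with the batch, and fallen genes numbered 6 without KD replicate 4 and 5 with FPKM as deposited, after quantile normalization or in the fit of 22 libraries. For complex IV, risen genes numbered 1 without the filter, and fallen genes numbered 5 without KD replicate 4 or in the fit of 22 libraries, 1 without the filter, 6 with FPKM as deposited and 8 after quantile normalization. For ATP synthase, risen genes numbered 1 without control replicate 5 or KD replicate 4, with the replicate block or with the batch, and fallen genes numbered 4 without the filter.

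Transcripts of the mitochondrial genome made up 15.2% to 20.0% of all FPKM in the control and 13% to 15.3% in the KD libraries. Of 15 tested, 4 fell and 2 rose; the median was -0.16, and 0.06 after quantile normalization. mt-Co1, of the complex IV core, was at 13345, 10587, 9831 and 11611 in the control and 4059, 5222, 5002 and 6253 in the KD libraries (log2 fold change -1.14 ± 0.21, adjusted p = 0.00128). mt-Co3 was at 9851, 6581, 5751 and 6499.7 and 2148, 2697, 2179 and 2756 (log2 fold change -1.52 ± 0.23, adjusted p = 0.000471). mt-Co2 and mt-Nd1 fell as well, by 1.14 and 0.72 on the log2 scale. mt-Nd1 did not pass the test without the filter or after quantile normalization (adjusted p from 0.0663 to 0.111). mt-Nd2, of complex I, went the other way, from 1775, 1143, 1047 and 1341 to 2341, 2749.7, 2899.6 and 2986, without overlap (log2 fold change 1.08 ± 0.22, adjusted p = 0.00232). mt-Nd3 rose by the test too (log2 fold change 0.78 ± 0.24, adjusted p = 0.0227). mt-Nd3 did not pass the test without control replicate 4 or KD replicate 4 or 6 or without the filter (adjusted p from 0.0616 to 0.106). mt-Cytb, the most abundant, was at 24497, 18919, 15703 and 17221 and 19755, 18720.3, 11199 and 15465 (log2 fold change -0.23 ± 0.27, adjusted p = 0.535). Transcripts of other genes share 51.1% of the 50-base stretches of mt-Co1, 100% of those of mt-Co2, 99.9% of those of mt-Co3 and 98.0% of those of mt-Nd3. Of these transcripts, risen genes numbered 1 without control replicate 4 or KD replicate 4 or 6 or without the filter.

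Of 78 mitochondrial ribosomal protein genes, 37 fell (47.4%) and 5 rose, with a median of -0.48. Their sum was 7656, 7591, 7127 and 7538 FPKM in the control and 6116, 6025, 5154 and 5857 in the KD libraries, without overlap. Genes entered this list by their symbol, and whether each product is part of the mitochondrial ribosome was not checked, Mrps36 among them. Mrps36 had the largest fall of the list, from 94.1, 63.3, 56.1 and 60.1 to 11.1, 18, 19.4 and 13.9 (log2 fold change -2.06 ± 0.23, adjusted p = 5.96e-05). Of the mitochondrial ribosome list, risen genes numbered 3 without control replicate 1 or 6 or KD replicate 1 or without the filter, 2 without KD replicate 6 and 8 after quantile normalization, and fallen genes numbered 23 without the filter. Of 84 cytoplasmic ribosomal protein genes, 4 rose and 1 fell (median 0.12). Rps2, with 43% of its stretches shared, was at 709.6, 1018, 1064 and 1088 in the control and 1504, 1238, 1611 and 1838 in the KD libraries (log2 fold change 0.69 ± 0.17, adjusted p = 0.00779). Rpl22l1, a paralog used in some tissues, was the fallen one, from 245, 155, 185 and 199.96 to 66.6, 117, 95.7 and 111 (log2 fold change -1.0 ± 0.22, adjusted p = 0.00431). Of the cytoplasmic ribosome list, risen genes numbered 2 without control replicate 1, 4 or 6 or KD replicate 1 or 6 and 8 without KD replicate 5 or after quantile normalization, and fallen genes numbered 2 without KD replicate 4 or after quantile normalization.

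**Figure D4:**
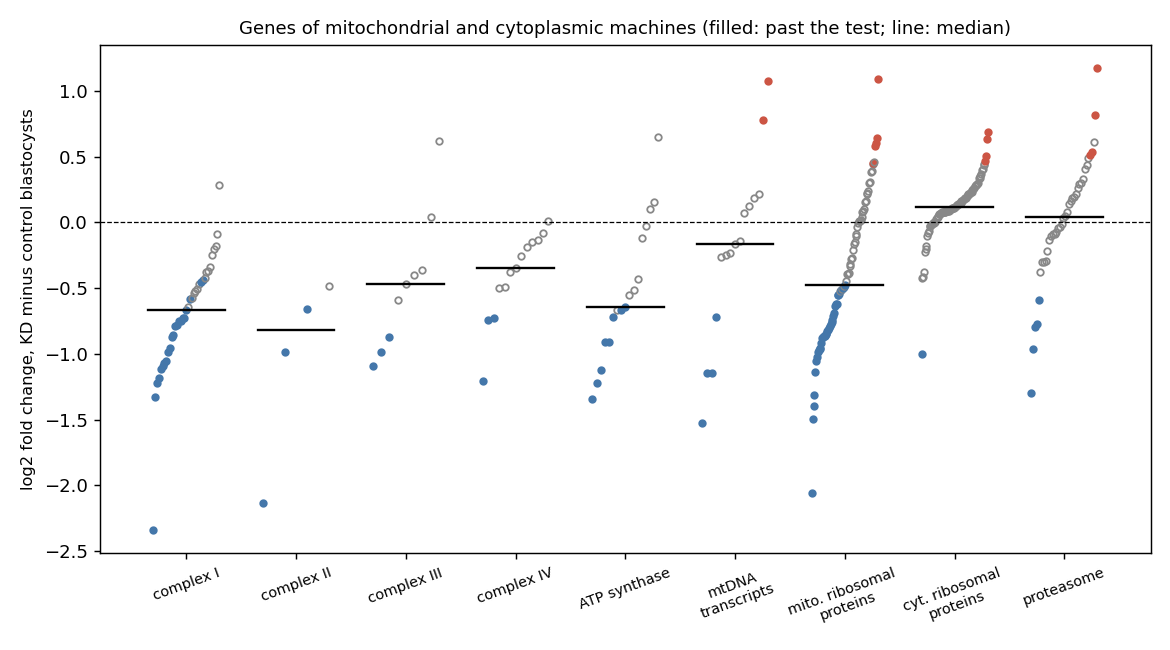
The log2 fold change of each gene, KD minus control blastocysts, in 9 lists; filled points passed the test, open points did not, and the line is the list's median. The complex I median lies at -0.66, that of the mitochondrial ribosome at -0.48 and that of the cytoplasmic ribosome at 0.12; the sign of the mitochondrial genome (mtDNA) median turns after quantile normalization.

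Of 27 genes of pyruvate entry and the TCA cycle, 10 fell (37%) and 1 rose (median -0.30). This list shares Sdhd, its largest fall, with complex II, so its counts are not separate from those above. Mdh1, the cytosolic malate dehydrogenase of the malate-aspartate shuttle, was at 186, 121, 106 and 132 in the control and 35, 43.3, 32.6 and 35.2 in the KD libraries (log2 fold change -1.84 ± 0.23, adjusted p = 0.000112). Its groups did not overlap. Among 21 glycolysis and pentose phosphate genes, 5 fell (23.8%, near the share of all genes) and 1 rose (median -0.17). Pgk1, an X-linked ATP-forming step, was at 47.3, 52.9, 47.2 and 41.6 and 13.2, 15.5, 11.2 and 14.3 (log2 fold change -1.73 ± 0.18, adjusted p = 3.66e-05). About 53.9% of the 50-base stretches of Pgk1 occur in other genes. In the TCA list, risen genes numbered 0 without control replicate 4, 5 or 6 or KD replicate 1 or 6, without the filter or in the fit of 22 libraries. In the glycolysis list, risen genes numbered 0 without control replicate 1, 4 or 6 or KD replicate 1, 5 or 6 or with FPKM as deposited.

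Of 27 sterol synthesis genes, 8 fell and 0 rose by limma (0 at an unadjusted p under 0.05; median -0.10); of the 26 present in both groups, 0 rose and 7 fell. Nsdhl, an X-linked enzyme of late cholesterol synthesis, was at 31.1, 29.5, 39.7 and 30.2 in the control and 4.71, 9.98, 8.52 and 11.9 in the KD libraries (log2 fold change -1.83 ± 0.23, adjusted p = 0.000124). Of 20 fatty acid and lipid storage genes, 7 fell and 3 rose (median -0.38). In the lipid list, risen genes numbered 1 with the stricter filter and 5 with the replicate block. Of the 17 present in both groups, 2 rose and 6 fell. Dgat2, which makes storage triglyceride, rose from 0.215, 1.22, 1.83 and 1.09 to 3.25, 2.57, 4.79 and 4.25, with 6.89 ± 2.8 in control morulae (log2 fold change 1.23 ± 0.24, adjusted p = 0.00175).

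Of 38 antioxidant genes, 13 fell, 7 rose and the median was -0.13. Gstm2, a glutathione transferase, was at 16.8, 18.1, 9.43 and 8.62 in the control and 1.34, 2.49, 1.82 and 0.814 in the KD libraries (log2 fold change -2.41 ± 0.29, adjusted p = 9.39e-05). Glutaredoxin, Glrx, was at 301, 302, 251 and 239 in the control, 54.2, 99.5, 77.4 and 102 in the KD and 4.27 ± 1.6 in the control morula libraries (log2 fold change -1.73 ± 0.22, adjusted p = 0.000123). Hmox1, heme oxygenase, was at 5.99, 12.1, 39.2 and 23.6 in the control, 43.8, 55.5, 82.4 and 59.9 in the KD and 3.47 ± 0.922 in the control morula libraries (log2 fold change 1.80 ± 0.39, adjusted p = 0.00363), with the highest mean in KD blastocysts. In the antioxidant list, risen genes numbered 4 without KD replicate 6. Of the 37 present in both groups, 6 rose and 13 fell.

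Of 48 lysosome genes, 9 rose and 9 fell (18.8% each, near the shares of all genes, median 0.13). Ctsz, a cysteine protease, rose from 20, 36.7, 40.7 and 32.6 to 87.4, 62.4, 66.2 and 74.9 (log2 fold change 1.18 ± 0.20, adjusted p = 0.000894). Npc1, which exports cholesterol, fell (log2 fold change -1.34 ± 0.17, adjusted p = 0.000135). In the lysosome list, risen genes numbered 4 without the filter, and fallen genes numbered 4 without control replicate 6 and 5 without KD replicate 5 or 6 or without the filter.

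Of 23 Polycomb genes, 5 rose and 1 fell (median 0.20). Kdm2b, which brings Polycomb complexes to CpG islands, was at 1.05, 1.13, 1.13 and 1.32 in the control and 7.14, 4.54, 10.6 and 5.96 in the KD libraries (log2 fold change 1.85 ± 0.20, adjusted p = 4.58e-05). In morulae it was at 13.5 ± 7.13 in the control and 6.05 ± 5.31 in the KD libraries, and the KD effects of the stages, of opposite sign, differed by 2.87 (adjusted p = 0.00182). Ezh2, the methyltransferase, passed the test narrowly, at 13.2, 17.8, 15.4 and 16 in the control and 18, 18.7, 23.1 and 25.1 in the KD libraries (log2 fold change 0.42 ± 0.15, adjusted p = 0.0496). Ezh2 did not pass the test without control replicate 1, 4, 5 or 6 or KD replicate 1, 4, 5 or 6, with FPKM as deposited, with the replicate block or in the fit of 22 libraries (adjusted p from 0.0545 to 0.151). Of the Polycomb list, risen genes numbered 3 without control replicate 1 or 5 or KD replicate 1, 4 or 5, without the filter, with FPKM as deposited, with the replicate block or in the fit of 22 libraries and 2 without control replicate 6 or KD replicate 6, and fallen genes numbered 0 without control replicate 1 or 4. Of 16 genes of H3K4 methyltransferase complexes, 2 rose and 1 fell. Of this list, risen genes numbered 1 without control replicate 4 or KD replicate 5 or 6, without the filter or with the stricter filter, and fallen genes numbered 0 without the filter and 2 in the fit of 22 libraries or with the batch. Of 15 DNA methylation genes, 3 rose and 1 fell. Of the methylation list, risen genes numbered 1 without the filter, and fallen genes numbered 2 without control replicate 1 or KD replicate 5, 0 without control replicate 4, 5 or 6 or KD replicate 1, 4 or 6, without the filter or with FPKM as deposited and 3 in the fit of 22 libraries. Of the 14 present in both groups, 2 rose and 1 fell.

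Regulators of later development were mostly under the level tested. Of 107 listed genes, such as Hox and Pax genes, 24 were at 0 in all 8 libraries and 5 could be tested. Nkx2-9 and Nkx6-2 rose, and both passed the filter through KD libraries alone, so the 2 of 5 says nothing about the list; of the 2 present in both groups, 0 rose and 0 fell. Of this list, risen genes numbered 9 without the filter and 1 with the stricter filter, and fallen genes numbered 1 without the filter. Nkx6-2 was at 0.438, 0.304, 0.305 and 0.423 in the control and 1.99, 1.91, 4.81 and 5.54 in the KD libraries (log2 fold change 1.64 ± 0.24, adjusted p = 0.000339). Summed over the list, levels were 12.1, 13.5, 16.2 and 17 FPKM in the control and 30.7, 24.3, 36 and 35.9 in the KD libraries, without overlap, and Nkx2-9 and Nkx6-2 carried much of the difference. T, Neurog1, Pax6 and Hoxb13 stayed under 1 FPKM in all 8 libraries. Of 21 imprinted genes, 5 rose (23.8%) and 4 fell (19%), beside 16.7% and 19.8% of all genes (median 0.11). Of the 15 present in both groups, 3 rose and 4 fell. Slc38a4, an amino acid transporter of the placenta, fell from 16.9, 22.6, 21.1 and 14.9 to 3.9, 7.01, 6.72 and 5.18 (log2 fold change -1.57 ± 0.20, adjusted p = 0.000122). Of the imprinted list, risen genes numbered 3 without KD replicate 1 and 2 with the stricter filter.

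The KD effect in blastocysts was compared with that in morulae over 12727 genes. It was higher in blastocysts for 691 genes (5.43%) and lower for 802 (6.30%) at an adjusted p under 0.05. The higher count was 413 without KD morula replicate 1, 440 without KD morula replicate 2 and 399 without the filter. Among trophectoderm effectors the effect was lower in blastocysts for 11 of 29 and higher for 0 by limma (2 at an unadjusted p under 0.05). For Tspan8 the difference was -2.78 (adjusted p = 0.000428), for Id2 -2.21 (adjusted p = 0.000892) and for Spp1 -2.77 (adjusted p = 0.000268); all 3 were far lower in morulae of both groups than in control blastocysts. A gene that is low in morulae, as Spp1 at 2.09 ± 0.796 in the control, has little room to fall there. In morulae the log2 fold change was -0.41 for Tspan8 (limma adjusted p = 0.394) and 0.37 for Spp1 (adjusted p = 0.416). The differences of these genes thus largely restate the effect in blastocysts. Id2 rose in morulae, from a mean of 22.1 to 37.7 (log2 fold change 0.85, limma adjusted p = 0.0435). Its difference therefore also holds a morula effect of opposite sign. Antioxidant genes were lower in 11 and higher in 0 (1 at an unadjusted p under 0.05). Of the p53 list, 5 were higher and 2 lower in blastocysts, and of complex I 0 (1 unadjusted) and 2. Obox6 had a difference of 2.63 (adjusted p = 2.79e-05) and Cthrc1 of 2.32 (adjusted p = 0.000129).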

How the data were processed

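The authors' deposited table holds FPKM per gene, from reads aligned with STAR and quantified with StringTie; it gives no counts. The 4 control and 4 KD blastocyst libraries were grouped by their labels. FPKM were divided by median-of-ratios factors (0.893 to 1.12), a pseudocount of 1 was added and log2 taken. Genes that reached an FPKM of 1 in 3 or more libraries were tested with limma 3.58.1 in R 4.3.3 (empirical Bayes with trend), p adjusted by Benjamini-Hochberg over all 11828. The stage comparison used the interaction of stage and KD in 15 libraries. Genes named come from a set of H2afz and H2afv, the 8 largest non-overlapping rises and falls among protein-coding DEGs, and, in each list, up to 4 genes in its majority direction, up to 2 in the other, its most abundant gene and a few set regulators. Not every gene of this set is described, and those described were picked with their values known. Members and lists were chosen with earlier results of these data known. Lists were counted, not tested. Alternatives were another pseudocount, other filters and scalings, a replicate block, 1 fit of all libraries, and each library left out. Shared sequence was counted in stretches of 50 bases over annotated transcripts. Python 3.11.15 with numpy 2.4.6 and matplotlib 3.10.9 drew the figures.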

Additional observations from a re-analysis of the deposited data

Results flagged for a closer look

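In 15 of 362 groups of 4 libraries, over the genes named or counted as examples, 1 library lay far from the other 3 by Dixon's criterion. Chance would put about 1 in 20 groups of independent, normally spread values there. The genes share the same 8 libraries and were picked with their values known, so the number cannot be read against that rate. The values in FPKM were in KD replicate 1, Krt7 (1.57); in KD replicate 4, Bok (20.3) and Ndufb3 (91.5); in KD replicate 5, Mbnl3 (7.36), Aqp8 (1.19), Pltp (2.4) and Dnmt3b (6.45); in control replicate 1, Fabp3 (3382) and Phlda3 (0.925); in control replicate 4, Nupr1 (1.25) and Ercc1 (25.8); in control replicate 5, Psph (8.42) and Nsdhl (39.7); in control replicate 6, Obox8 (0.0419) and Gata6 (19.4). The cause was not tested.

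In 81 of the 181 genes followed singly, the KD effect differed between the stages by the interaction test of limma. Values are the effect in blastocysts minus that in morulae on the log2 scale. The effect was lower in blastocysts for 50 and higher for 31. The share over all genes tested was 5.43% higher and 6.30% lower. The 181 genes were picked for large blastocyst effects, so their share cannot be read against it. Other genes of the set described under the processing, such as Tfpt, P4ha1, Plod1 and Fn1, also passed this test and are not counted here. The lower effects were BC053393 -3.65, Tspan8 -2.78, Spp1 -2.77, Spint5 -2.73, Aqp8 -2.44, Glrx -2.35, Ooep -2.28, Id2 -2.21, Npc1 -2.19, Tdgf1 -2.18, Cnpy2 -2.16, Gstm2 -2.14, mt-Co1 -2.13, Plac1 -2.08, Sparc -2.07, Mgst3 -2.07, mt-Co3 -1.95, Tpi1 -1.82, Mbnl3 -1.73, Mt1 -1.70, mt-Co2 -1.67, Dsg2 -1.56, Uqcrh -1.45, Gsta4 -1.44, Cldn6 -1.42, Gins2 -1.40, Gata2 -1.39, Slc38a4 -1.38, Mrps36 -1.35, Elf5 -1.33, Rad51b -1.32, Rpl22l1 -1.30, Mdh1 -1.24, Prim1 -1.17, Atp1b1 -1.15, mt-Nd1 -1.14, Patl2 -1.14, Dppa5a -1.13, Scd1 -1.12, Commd1 -1.11, Ebp -1.09, Pltp -1.08, Pgk1 -1.06, Ppt1 -0.95, Mdm4 -0.94, Top2a -0.94, Elovl1 -0.87, Bmi1 -0.78, Lamb1 -0.75 and Epcam -0.70. The higher effects were Kdm2b 2.87, Gm5890 2.73, Obox6 2.63, Nanog 2.49, Cthrc1 2.32, Sp110 1.78, Gaa 1.73, Ccne1 1.62, Esp24 1.60, Ino80e 1.60, Ccn1 1.59, Gm4513 1.59, Gm4565 1.58, Xrcc1 1.54, Sox15 1.44, Aqp3 1.34, Cxcl10 1.33, Wdr5 1.26, Ppp1r15a 1.25, Dnajb9 1.19, Ctsz 1.18, Trib3 1.15, Plk2 1.14, Tfap2c 1.10, Trp53 1.06, H2afv 1.04, Ccn2 1.03, Bok 1.01, Dmap1 0.87, Pcgf6 0.85 and Padi6 0.63. The Esp24 value is set by the pseudocount, since its control blastocysts were listed at 0. Aqp8 was at 0 in all 7 morula libraries, and Gata2, Elf5, Dsg2, Sparc, Lamb1, Patl2, Pltp, Rad51b and Gstm2 were under 1 FPKM in each, so a fall there had little or no room and these values largely restate the effect in blastocysts. BC053393, Spint5, Plac1 and Mbnl3, at means of 1.49, 0.67, 1.01 and 0.54 FPKM in control morulae, also had little room to fall there. Their differences are to be read in the same way.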

How the results depend on the processing

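No gene followed singly that passed a test turned its direction, and 0 DEGs changed sign. After quantile normalization the list medians of mtDNA (-0.16 to 0.06), cavity and junction (near 0 to 0.05) and cyclins (near 0 to 0.02) turned sign. Counts that moved by more than 1.5 times were these. A pseudocount of 0.1 gave 1109 upregulated DEGs in place of 722. An FPKM of at least 5 gave 459 upregulated DEGs, 1231 risen and 1537 fallen genes, with fewer genes tested. The higher KD effects in blastocysts numbered 399 without a filter. The replicate block, in which a number pairs a control with a KD library, gave 726 and 920 DEGs. Leaving out each library in turn gave 608 to 785 upregulated and 806 to 1030 downregulated DEGs, 1493 to 1875 risen and 1897 to 2272 fallen genes, and 413 to 865 higher and 545 to 894 lower stage effects; the lowest higher counts were 413 and 440, without KD morula replicates 1 and 2, and 470, without control blastocyst replicate 1. Of the 181 genes followed singly, 159 passed, and 27 of these lost their call in at least 1 alternative. Of the 159, 23 were not tested in each alternative, 111 were tested and passed in each, and 24 lost their call without the filter. Beyond the alternatives' own construction, the cause was not tested. Read depth is unknown, so what depth limits cannot be given.

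Each gene list gave a risen and a fallen count, except that the lists of cumulus and granulosa cells (0 genes tested) and of blood and fibroblasts (2 tested, 1 risen) were not followed. Of these 88 counts, 0 moved by more than 1.5 times with a pseudocount of 0.1. Without the filter on low FPKM, 39 moved, and risen genes numbered H2A variants 0, SRCAP 1, cavity and junction 1, pluripotency 4, basement membrane 1, DNA repair 5, mtDNA 1, TCA 0, lysosome 4, proteasome 2, chaperones 3, Polycomb 3, H3K4 1, DNA methylation 1, developmental 9, snoRNA hosts 1, complex IV 1, mitochondrial ribosome 3 and histones 2, and fallen genes numbered H2A variants 5, SRCAP 2, TIP60-INO80 1, cavity and junction 1, primitive endoderm 4, basement membrane 5, p53 0, BCL2 0, ATF4 1, lysosome 5, chaperones 0, H3K4 0, DNA methylation 0, developmental 1, interferon 1, complex I 13, complex IV 1, ATP synthase 4, mitochondrial ribosome 23 and histones 0. With an FPKM of at least 5 asked for, which leaves fewer genes to test, 22 moved, and risen genes numbered trophectoderm factors 2, trophectoderm effectors 0, FGF, Nodal, BMP and LIF 1, Hippo pathway 3, 2-cell 7, oocyte 1, ATF4 5, fatty acid 1, H3K4 1, developmental 1, imprinted 2 and histones 0, and fallen genes numbered trophectoderm factors 1, primitive endoderm 1, basement membrane 1, p53 1, BCL2 0, ATF4 1, DNA repair 8, interferon 1, snoRNA hosts 0 and histones 1. With FPKM as deposited, 12 moved, and risen genes numbered H2A variants 0, basement membrane 2, oocyte 1, glycolysis 0, chaperones 6, Polycomb 3 and interferon 1, and fallen genes numbered SRCAP 2, TIP60-INO80 1, DNA methylation 0, complex III 5 and complex IV 6. After quantile normalization, 6 moved, and risen genes numbered cytoplasmic ribosome 8 and mitochondrial ribosome 8, and fallen genes numbered BCL2 2, complex III 5, complex IV 8 and cytoplasmic ribosome 2. With the replicate block, 6 moved, and risen genes numbered fatty acid 5, Polycomb 3, ATP synthase 1 and tRNA synthetases 6, and fallen genes numbered SRCAP 2 and BCL2 2. With all 22 libraries in 1 fit, 13 moved, and risen genes numbered oocyte 1, TCA 0 and Polycomb 3, and fallen genes numbered SRCAP 2, TIP60-INO80 1, cavity and junction 5, BCL2 2, H3K4 2, DNA methylation 3, complex III 5, complex IV 5, tRNA synthetases 6 and histones 6. With replicate 1 against higher numbers as a batch, which was chosen after seeing the data, 6 moved, and risen genes numbered H2A variants 2, complex III 1, ATP synthase 1 and tRNA synthetases 6, and fallen genes numbered SRCAP 2 and H3K4 2.

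Leaving out each library in turn moved the count of some lists by more than 1.5 times, with these ranges. Risen genes ranged in H2A variants 0 to 1, SRCAP 1 to 3, cavity and junction 1 to 4, primitive endoderm 0 to 1, basement membrane 2 to 4, FGF, Nodal, BMP and LIF 2 to 3, Hippo pathway 3 to 5, oocyte 1 to 2, mtDNA 1 to 2, TCA 0 to 1, glycolysis 0 to 1, antioxidant 4 to 7, proteasome 2 to 6, chaperones 5 to 12, Polycomb 2 to 4, H3K4 1 to 2, imprinted 3 to 5, interferon 1 to 2, snoRNA hosts 1 to 3, complex III 0 to 1, ATP synthase 0 to 1, cytoplasmic ribosome 2 to 8, mitochondrial ribosome 2 to 6 and tRNA synthetases 2 to 5. Fallen genes ranged in TIP60-INO80 1 to 3, trophectoderm factors 1 to 4, cavity and junction 1 to 5, FGF, Nodal, BMP and LIF 2 to 4, Hippo pathway 1 to 2, p53 1 to 2, BCL2 0 to 2, ATF4 1 to 2, lysosome 4 to 7, chaperones 0 to 1, Polycomb 0 to 1, DNA methylation 0 to 2, complex III 3 to 6, complex IV 2 to 5, cytoplasmic ribosome 1 to 2, tRNA synthetases 2 to 5 and histones 1 to 5.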

Other observations

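Of 37 chaperone genes, 11 rose and 1 fell (median log2 fold change 0.31). Dnajb9, a co-chaperone of the endoplasmic reticulum, was at 18.6, 23.9, 25 and 20.9 FPKM in the control and 88.5, 87, 86.1 and 92.6 in the KD libraries, without overlap (log2 fold change 1.97 ± 0.15, adjusted p = 3.18e-06). Of the chaperone list, risen genes numbered 5 without control replicate 1, 6 without control replicate 4 or 6 or KD replicate 1 or 5 or with FPKM as deposited and 3 without the filter, and fallen genes numbered 0 without control replicate 1, 4 or 6 or KD replicate 1, 5 or 6 or without the filter. Of the 36 present in both groups, 10 rose and 1 fell. Of 38 proteasome genes, 4 rose and 5 fell (median 0.04). Of the proteasome list, risen genes numbered 2 without control replicate 1 or 4 or KD replicate 4 or 6 or without the filter. Among 35 aminoacyl-tRNA synthetase genes, 3 rose and 3 fell. Of the synthetase list, risen genes numbered 5 without control replicate 5 and 6 with the replicate block or with the batch, and fallen genes numbered 5 without control replicate 1 and 6 in the fit of 22 libraries.

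Of 50 genes of replication-dependent histones, 4 rose and 2 fell (median -0.09); these transcripts mostly lack a poly(A) tail and are poorly captured by the library method. Of the 37 present in both groups, 1 rose and 2 fell, so the risen count rests mostly on genes near the filter. Of the histone list, risen genes numbered 2 without the filter and 0 with the stricter filter, and fallen genes numbered 1 without control replicate 1 or 6 or KD replicate 6 or with the stricter filter, 5 without KD replicate 4, 0 without the filter and 6 in the fit of 22 libraries. Of 16 basement membrane genes, 4 rose (25%) and 3 fell (18.8%), beside 16.7% and 19.8% of all genes. Of the basement membrane list, risen genes numbered 2 without control replicate 1, 4 or 6 or KD replicate 5 or with FPKM as deposited and 1 without the filter, and fallen genes numbered 5 without the filter and 1 with the stricter filter. Of the 11 present in both groups, 3 rose and 1 fell. Of 10 interferon response genes, 2 rose and 3 fell, and of 18 snoRNA host genes 3 and 1. Of the interferon list, risen genes numbered 1 without control replicate 1 or 4 or KD replicate 4, 5 or 6 or with FPKM as deposited, and fallen genes numbered 1 without the filter or with the stricter filter. Of the 7 present in both groups, 1 rose and 2 fell. Of the snoRNA host list, risen genes numbered 1 without control replicate 4 or 5 or KD replicate 1, 4 or 6 or without the filter, and fallen genes numbered 0 with the stricter filter.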
